A study of Canis lupus familiaris with 45 samples.

Results

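COL1A1, COL1A2 and COL3A1 encode the chains of the fibrillar collagens type I and type III, and their signals were followed in the left ventricle of dogs during pacing-induced heart failure. All probe sets annotated to exactly 1 of these 3 symbols were taken, whatever their values, which gave 11 of 23836 probe sets on the array that are not controls. COL1A1 had 2 probe sets, COL1A2 had 5 and COL3A1 had 4, and 8 of the 11 were bright enough to be tested among 14302 probe sets. By RefSeq's gene positions on the assembly UU_Cfam_GSD_1.0, COL1A1 lies on chromosome 9 from 26134702 to 26150789, COL1A2 on chromosome 14 from 19843097 to 19878889 and COL3A1 on chromosome 36 from 30884313 to 30921873.

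The study used 15 male, age-matched dogs in 5 groups of 3, with transmural left ventricular tissue taken from each dog. The Day-0 dogs were unpaced. In the other dogs a pacemaker was placed through a left lateral thoracotomy with its lead on the right ventricle, and rapid pacing at 240 ppm began 1 to 2 days later. Pacing lasted 3 days in the Day-3 dogs and 1 week in the Week-1 dogs. It lasted 2 weeks in the Week-2 dogs, and at End-stage it had gone on for 3 to 4 weeks, when hemodynamic measurements showed end-stage heart failure. Whether the Day-0 dogs had the operation was not stated in the sources used here, so that pacing and surgery cannot be told apart. Every dog gave 3 separate RNA isolations with a 1-colour Affymetrix array each, for 45 arrays in all.

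Type I collagen is a triple helix of COL1A1 and COL1A2 chains and forms thick, stiff fibres, whereas type III collagen is a triple helix of COL3A1 chains and forms a finer, more compliant network. In the heart these chains are made mainly by fibroblasts, are hydroxylated and folded in the endoplasmic reticulum, lose their propeptides outside the cell and are then cross-linked into the interstitial matrix that surrounds the muscle cells. More fibrillar collagen in that matrix is a known feature of many failing hearts.

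The signals are MAS5 values in arbitrary units, which the authors scaled to a common trimmed mean on every array, and array medians lay between 33.3 and 48.6. Of 10 cardiomyocyte markers, 7 were on the array and all 7 were tested, and their summed signal lay between 48366 and 78508 over the 15 dogs. In every group dog 1 had the lowest signal for MYH7, MYL2, MYL3, TNNT2, TNNI3 and ACTC1, though not for RYR2. MYL2 lay between 7776 and 8335 in these dogs and between 8975 and 12934 in the others. What the dog number stands for was not stated. The 3-prime over 5-prime signal ratio of GAPDH, a sign of RNA quality, lay between 0.881 and 1.02 in all dogs. By their closest match over 200 probe sets chosen on other dogs, 41 of 45 arrays lay with their own dog. The exceptions were all 3 arrays of Week-1 dog 1, which matched End-stage dog 1, and the first isolation of End-stage dog 1, which matched Week-1 dog 1. The arrays were kept under their labels, and the main values are also given without these 2 dogs. Because whole tissue was used, more fibroblasts and more collagen RNA per fibroblast cannot be told apart.

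**Figure D1:**
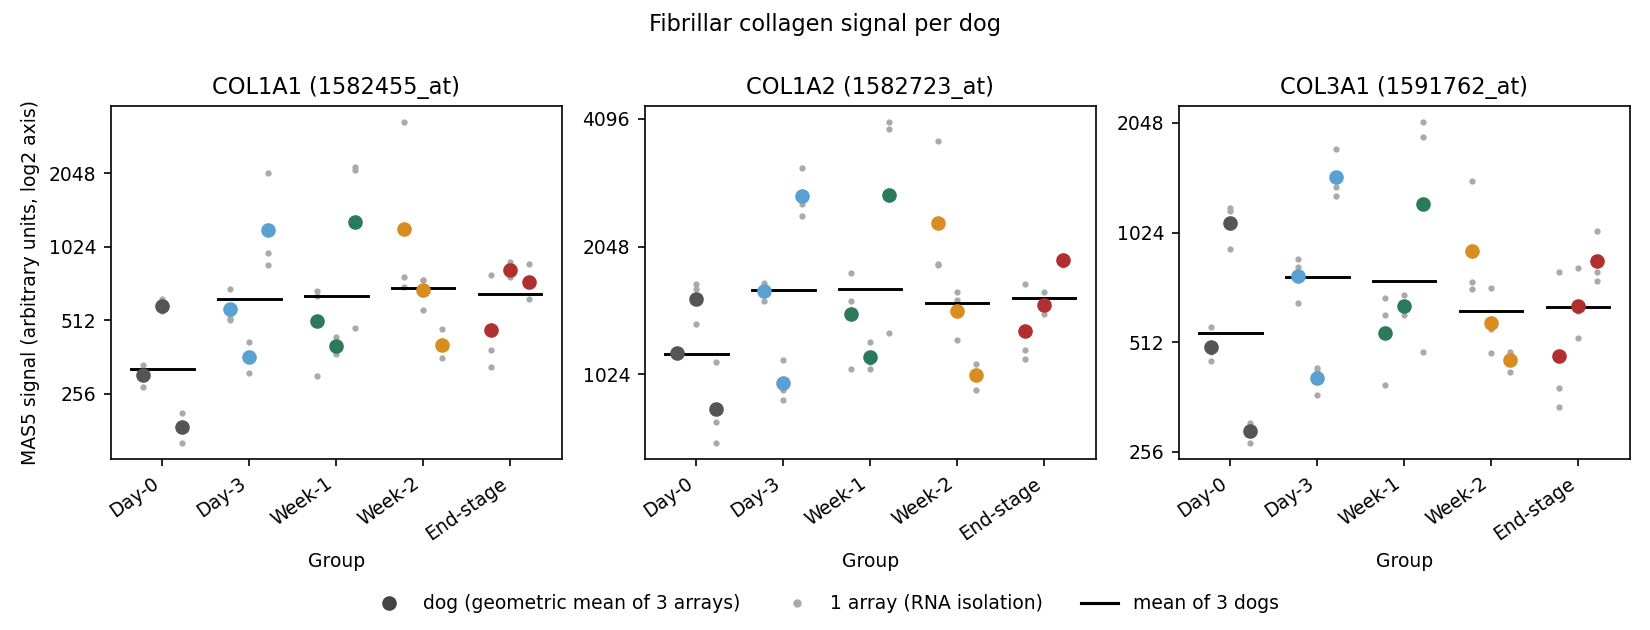
MAS5 signal (arbitrary units, log2 axis) of the brightest probe set of COL1A1, COL1A2 and COL3A1 in the 5 groups. Large points are dogs (geometric mean of 3 arrays), small grey points are single arrays and bars are means of 3 dogs. All 12 paced dogs lie above the Day-0 bar for COL1A1, against 9 of 12 for COL1A2 and 9 of 12 for COL3A1, and the dogs of each group spread widely.

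COL1A1, the chain that fills most of the type I helix, had about double the Day-0 signal in each paced group by its brightest probe set, 1582455_at, with wide overlap between single dogs. Its signal per dog, in the order of dogs 1, 2 and 3, was 306, 588 and 188 at Day-0. It was 569, 363 and 1197 at Day-3, and 507, 401 and 1296 at Week-1. At Week-2 it was 1211, 682 and 406, and at End-stage 465, 821 and 735. One dog in each of Day-3, Week-1 and Week-2 stood at 1197 or above, whereas the End-stage dogs lay closer together and had no such dog. All 12 paced dogs lay above the Day-0 mean, yet only 6 of 12 lay above the highest Day-0 dog and none lay below the lowest. The log2 means were 8.34 ± 0.83 at Day-0, 9.29 ± 0.87 at Day-3, 9.32 ± 0.90 at Week-1, 9.44 ± 0.79 at Week-2 and 9.35 ± 0.43 at End-stage (SD, n = 3 dogs each).

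Against Day-0, COL1A1 by 1582455_at stood 0.96 higher on the log2 scale at Day-3, 0.99 at Week-1, 1.10 at Week-2 and 1.02 at End-stage, each with an SE of 0.53. None of these passed the threshold of 0.05 after Benjamini-Hochberg adjustment over all probe sets in limma, with adjusted p = 0.708, 0.635, 0.468 and 0.674. The mean of the 4 paced groups was 2.02-fold that of Day-0 (log2 1.02, SE 0.42, 95% interval 0.12 to 1.92, limma adjusted p = 0.345). Without Week-1 dog 1 and End-stage dog 1 the same log2 difference was 1.12 (adjusted p = 0.370 by limma). An exact two-sided permutation test of the 12 paced dogs against the 3 Day-0 dogs gave p = 0.044 for this probe set, unadjusted for the 11 probe sets tested in this way, where 0.0022 is the smallest p the design allows. Leaving out a single dog put this p between 0.011 and 0.253, and highest without Day-0 dog 3, when the log2 difference was 0.63. It stayed below 0.05 in 5 of 15 cases only, those without Day-0 dog 2, Day-3 dog 2, Week-1 dog 2, Week-2 dog 3 or End-stage dog 1. The dimmer COL1A1 probe set 1585698_at gave like values, with a paced difference of 1.10 (SE 0.43, limma adjusted p = 0.307, exact permutation p = 0.037), and its dog values followed those of the brighter probe set with a Pearson r of 0.97 over 15 dogs.

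COL1A2, the second chain of type I collagen, had smaller differences and less scatter between dogs than COL1A1 by its brightest probe set, 1582723_at. The Day-0 dogs had signals of 1150.2, 1539 and 847. The Day-3 dogs had 1611, 977 and 2693, and the Week-1 dogs 1418, 1122 and 2712. The Week-2 dogs had 2323, 1446 and 1019, and the End-stage dogs 1296, 1493 and 1908. The highest dogs of Day-3, Week-1 and Week-2 were the ones that were highest for COL1A1, and 5 of 12 paced dogs lay above all Day-0 dogs. The paced mean was 1.38-fold that of Day-0 (log2 0.46, SE 0.31, 95% interval -0.20 to 1.12, limma adjusted p = 0.656; exact permutation p = 0.176). Without Week-1 dog 1 and End-stage dog 1 the log2 difference was 0.52. By group the log2 difference from Day-0 was 0.50 at Day-3, 0.51 at Week-1, 0.40 at Week-2 and 0.43 at End-stage, each with an SE of 0.39 and a limma adjusted p between 0.784 and 0.879.

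The other COL1A2 probe sets disagreed on the size of the change. By 1594426_at, which followed the brightest one with a Pearson r of 0.96 over 15 dogs, the End-stage dogs had 208, 296 and 309, against 157, 202 and 92.5 in the Day-0 dogs. These groups did not overlap, a separation seen upward in 6.33% of all tested probe sets at End-stage. Of the 12 paced dogs, 9 lay above all Day-0 dogs. In that probe set the paced difference was 0.96 on the log2 scale (SE 0.41, 95% interval 0.08 to 1.83, limma adjusted p = 0.367; exact permutation p = 0.046, unadjusted). The dim probe set 1594427_at (r = 0.93 with the brightest) gave 0.51 (SE 0.48), and 1589596_at (r = 0.42) gave -0.07 (SE 0.41). The fifth, 1603402_at, had signals of 4.37 or less in every dog, below the filter, and was not tested in limma. Its paced difference was 0.29 (exact permutation p = 0.543, unadjusted).

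COL3A1, the type III chain, had a small and uncertain difference from Day-0. By 1591762_at its signals were 497, 1089 and 293 at Day-0. They were 776, 408 and 1449.7 at Day-3 and 544, 644 and 1229 at Week-1. At Week-2 they were 912, 577 and 458, and at End-stage 470.2, 646 and 854. The Day-0 dogs alone spanned 3.72-fold, and every Week-2 and End-stage dog lay within that span. Of the 12 paced dogs, 9 lay above the Day-0 mean and 2 above all Day-0 dogs. The paced mean was 1.28-fold that of Day-0 (log2 0.36, SE 0.39, 95% interval -0.47 to 1.19, limma adjusted p = 0.833; exact permutation p = 0.404). This difference depended on Day-0 dog 3, the lowest of all 15 dogs, since it was -0.085 without that dog. Without Week-1 dog 1 and End-stage dog 1 it was 0.47. The group differences were 0.51 at Day-3, 0.48 at Week-1, 0.20 at Week-2 and 0.24 at End-stage, each with an SE of 0.49.

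A second tested COL3A1 probe set, 1593385_at, gave a paced difference of 0.20 on the log2 scale (SE 0.24, limma adjusted p = 0.862), ranging from 0.35 at Day-3 to -0.03 at End-stage, and followed the brightest with a Pearson r of 0.77. The other pair lay below the filter, whose lower bound was a mean signal of 22.8. The probe set 1593386_at, with a mean signal of 22.4, lay just outside it, and 1594427_at of COL1A2, with 26.6, just inside. The paced difference of 1593386_at was 0.36 on the log2 scale (exact permutation p = 0.189, unadjusted). Signals of 1604901_at averaged 19.3 at Day-3 and 14.8 at Week-1, against 16.6 at Day-0. They averaged 9.27 at Week-2 and 9.13 at End-stage, with all 6 of these paced dogs below all Day-0 dogs. Over all paced dogs 7 of 12 lay below all Day-0 dogs. Its paced difference was -0.42 on the log2 scale (exact permutation p = 0.305, unadjusted). Among the tested probe sets, all brighter than this one, 9.21% were lower without overlap at Week-2 and 7.94% at End-stage. These shares count each group alone, not both at once. The lower Week-2 and End-stage signals of 1604901_at were not seen in the brightest COL3A1 probe set. Neither COL3A1 probe set below the filter followed the brightest (Pearson r of -0.05 for 1593386_at and 0.06 for 1604901_at over 15 dogs).

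**Figure D2:**
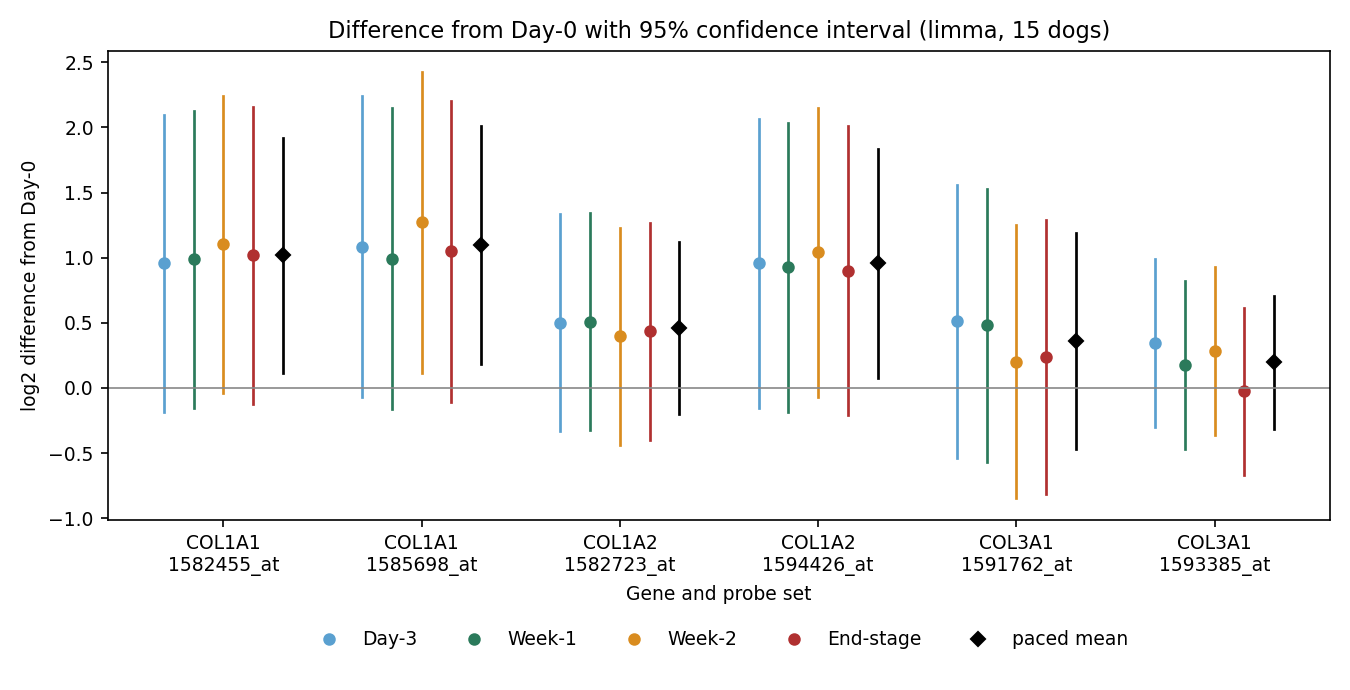
Difference from Day-0 on the log2 scale (points, with 95% confidence intervals from limma over 15 dogs) for the brightest and second-brightest probe set of each gene, at Day-3, Week-1, Week-2 and End-stage and for the mean of the 4 paced groups (black diamonds). Points for COL1A1 and for 1594426_at of COL1A2 lie near 1, those of COL3A1 lie lower, and the paced-mean interval lies above 0 in 3 of the 6 probe sets.

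Counted over the 8 tested probe sets, limma called none in any comparison. At Day-3 against Day-0, 0 of 8 passed the adjusted threshold, beside 0% of all tested probe sets, and 0 of 8 had an unadjusted p under 0.05, beside 8.07%. At Week-1 the count was 0 of 8 beside 0.028% (unadjusted 0 of 8 beside 9%), and at Week-2 it was 0 of 8 beside 0.0839% (unadjusted 1 of 8 beside 11.2%). End-stage likewise had 0 of 8 beside 0.014% (unadjusted 0 of 8 beside 8.23%), and the mean of the paced groups had 0 of 8 beside 0.301%. In that last comparison 3 of 8 had an unadjusted p under 0.05, both COL1A1 probe sets and 1594426_at of COL1A2, beside 11.7% of all probe sets. A non-overlapping higher group was seen in 1 of 8 at End-stage, beside 6.33% of all probe sets. It was seen in 0 of 8 at Day-3 (beside 6.16%), Week-1 (6.73%), Week-2 (8.08%) and in the paced mean (0.909%). Estimates lay above 0 in 8 of 8 at Day-3 beside 50.8% of all probe sets, in 7 of 8 at Week-1 beside 45.4%, in 7 of 8 at Week-2 beside 49.2%, in 6 of 8 at End-stage beside 45.7% and in 7 of 8 in the paced mean beside 47.2%. The median log2 difference of the 8 was 0.51 at Day-3, 0.56 at Week-1, 0.42 at Week-2 and 0.54 at End-stage, whereas the median over all tested probe sets lay between -0.03 and 0.004.

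No difference between paced groups passed the threshold in the 3 genes. For the brightest probe sets the log2 difference was between -0.03 and 0.03 for Week-1 minus Day-3, between -0.28 and 0.12 for Week-2 minus Week-1, and between -0.09 and 0.04 for End-stage minus Week-2. The mean of Week-2 and End-stage minus the mean of Day-3 and Week-1 was 0.09 for COL1A1 (95% interval -0.72 to 0.90), -0.09 for COL1A2 (-0.68 to 0.50) and -0.28 for COL3A1 (-1.02 to 0.47). In each of these 4 comparisons 0 of 8 probe sets passed the threshold in limma, beside 0% of all probe sets. Likewise 0 of 8 had an unadjusted p under 0.05, beside 4.82% for Week-1 minus Day-3, 5.78% for Week-2 minus Week-1, 4.2% for End-stage minus Week-2 and 3.89% for late minus early. A further change within these wide intervals was not detectable with 15 dogs.

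By the brightest probe sets, COL3A1 and COL1A2 differed less between paced and Day-0 dogs than COL1A1 did, though not in every setting. Paced and Day-0 dogs were different animals, so no change within a dog was measured. Taking the difference of log2 signals between the brightest probe sets within each dog removes only what both show to an equal extent. Only the change of this difference between groups is read here. COL3A1 minus COL1A1 was 0.08 ± 0.32 in the paced dogs (SD, n = 12) and 0.74 ± 0.13 in the Day-0 dogs (SD, n = 3). By group the mean stood below Day-0 by a log2 difference of -0.45 at Day-3, -0.51 at Week-1, -0.90 at Week-2 and -0.78 at End-stage. All 12 paced dogs lay below the Day-0 mean and 11 of 12 below all Day-0 dogs, with Week-1 dog 2 as the exception. COL3A1 minus COL1A1 was thus lower by 0.66 on the log2 scale in the paced dogs (exact permutation test, p = 0.0066, adjusted p = 0.020 over 3 pairs of genes). This call was lost without Day-0 dog 1 (-0.68, exact adjusted p = 0.066), where only 2 Day-0 dogs were left, and with the mean of all probe sets of each gene (-0.94, exact adjusted p = 0.063). For COL1A2 and COL3A1 such a mean takes in the dim probe sets below the filter. With the second-brightest probe set of each gene the difference was -0.90, in 12 of 12 paced dogs below the Day-0 mean (exact p = 0.044, adjusted p = 0.066).

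The same test for COL1A2 minus COL1A1 gave 1.27 ± 0.23 in the paced dogs (SD, n = 12) and 1.83 ± 0.40 in the Day-0 dogs (SD, n = 3). That is a change of -0.56, with 12 of 12 paced dogs below the Day-0 mean and 7 below all Day-0 dogs (exact permutation p = 0.013, adjusted p = 0.020). This change depended on the probe set, since the second-brightest probe sets gave -0.14 (exact p = 0.415). Among the Day-0 dogs the difference was larger where COL1A1 was lower. In dogs 1, 2 and 3 it was 1.91, 1.39 and 2.18, with COL1A1 log2 signals of 8.26, 9.20 and 7.55. Whether the probe sets respond equally to their RNA was not tested. The call was also lost without Day-0 dog 1 (-0.51, exact adjusted p = 0.099) and without Day-0 dog 3 (-0.38, exact adjusted p = 0.110), and with the mean of all probe sets of each gene (-0.63, exact adjusted p = 0.063). COL3A1 minus COL1A2 changed by -0.10 (exact p = 0.593), and that estimate was 0.19 without Day-0 dog 2 and -0.76 with the second-brightest probe sets (exact adjusted p = 0.066).

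Whether COL3A1 minus COL1A1 was lower still in the dogs paced longer was tested after these values were seen. The within-dog difference was -0.10 ± 0.27 at Week-2 and End-stage together and 0.27 ± 0.27 at Day-3 and Week-1 together (SD, n = 6 dogs each), a change of -0.37. The exact permutation p was 0.048, and 0.143 after adjustment over the 3 pairs of genes, which did not pass the threshold.

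**Figure D3:**
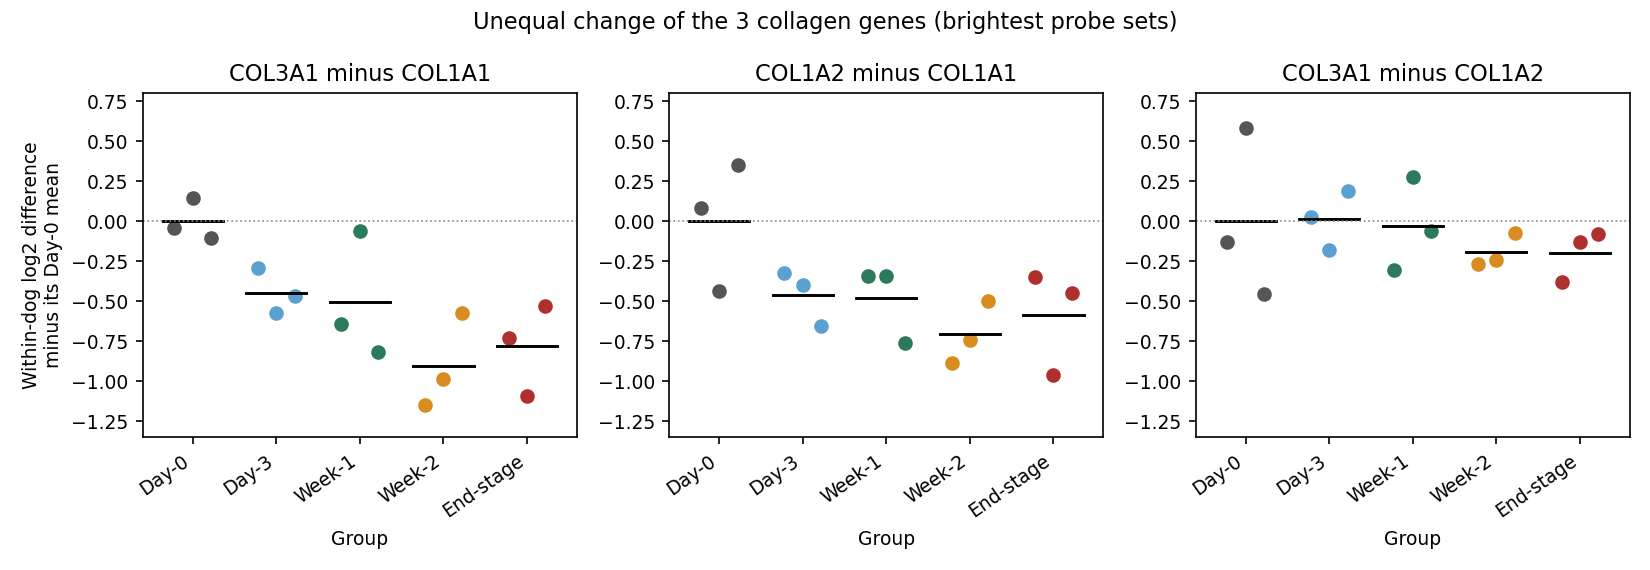
Within-dog log2 difference between the brightest probe sets of 2 collagen genes, minus its Day-0 mean, in the 5 groups. Points are dogs and bars are group means. COL3A1 minus COL1A1 lies below 0 in all 12 paced dogs, with group means between -0.45 and -0.90, while COL3A1 minus COL1A2 stays between -0.38 and 0.28 in them.

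Among the 15 dogs the 3 genes went up and down together. COL1A2 correlated with COL1A1 at a Pearson r of 0.94 and a Spearman rho of 0.93 (permutation test, adjusted p = 1.5e-05 and 3e-05 over 3 pairs). COL3A1 correlated with COL1A1 at r = 0.86 and rho = 0.85 (permutation, adjusted p = 3e-05 and 0.00013) and with COL1A2 at r = 0.91 and rho = 0.94 (permutation, adjusted p = 1.5e-05 and 3e-05). Without Day-0 dog 3 and Week-1 dog 3, the 2 farthest from the median of COL1A1, r with COL1A1 was 0.92 for COL1A2 and 0.77 for COL3A1. Without Week-1 dog 3 and Day-3 dog 3, the 2 farthest for COL1A2, r was 0.85 for COL3A1 with COL1A2. With every dog taken relative to its group mean, r was 0.96, 0.94 and 0.92, so the genes varied together within groups and not only between them.

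Single isolations of 1 dog also differed by several fold, and the 3 genes differed together. In Week-2 dog 1 the COL1A1 signal was 3315, 768 and 697 in isolations 1, 2 and 3, with COL1A2 at 3627, 1857 and 1861 and COL3A1 at 1420.5, 747 and 716. In Week-1 dog 3 it was 2166, 2117 and 474, with COL3A1 at 2056, 1874 and 482. Day-3 dog 3 had 863, 968 and 2055 for COL1A1. Between isolations, taken relative to each dog's mean, the genes correlated pairwise at a Pearson r of 0.88 in each pair over the 45 arrays, as a description, since isolations of 1 dog share their tissue. The 3 dogs named here were also the highest COL1A1 dogs of their groups. With the median of the 3 isolations in place of their mean, no member passed the threshold either.

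This spread was large for the array. Between isolations the SD in log2 units was 0.57 for COL1A1, 0.34 for COL1A2 and 0.43 for COL3A1, against a median of 0.31 over all tested probe sets. The SD of dog values within groups was 0.78, 0.56 and 0.72 for the same genes, against a median of 0.27. Those values stood at the 99.3, 97.3 and 98.8 percentile among the 1000 probe sets nearest in mean signal.

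**Figure D4:**
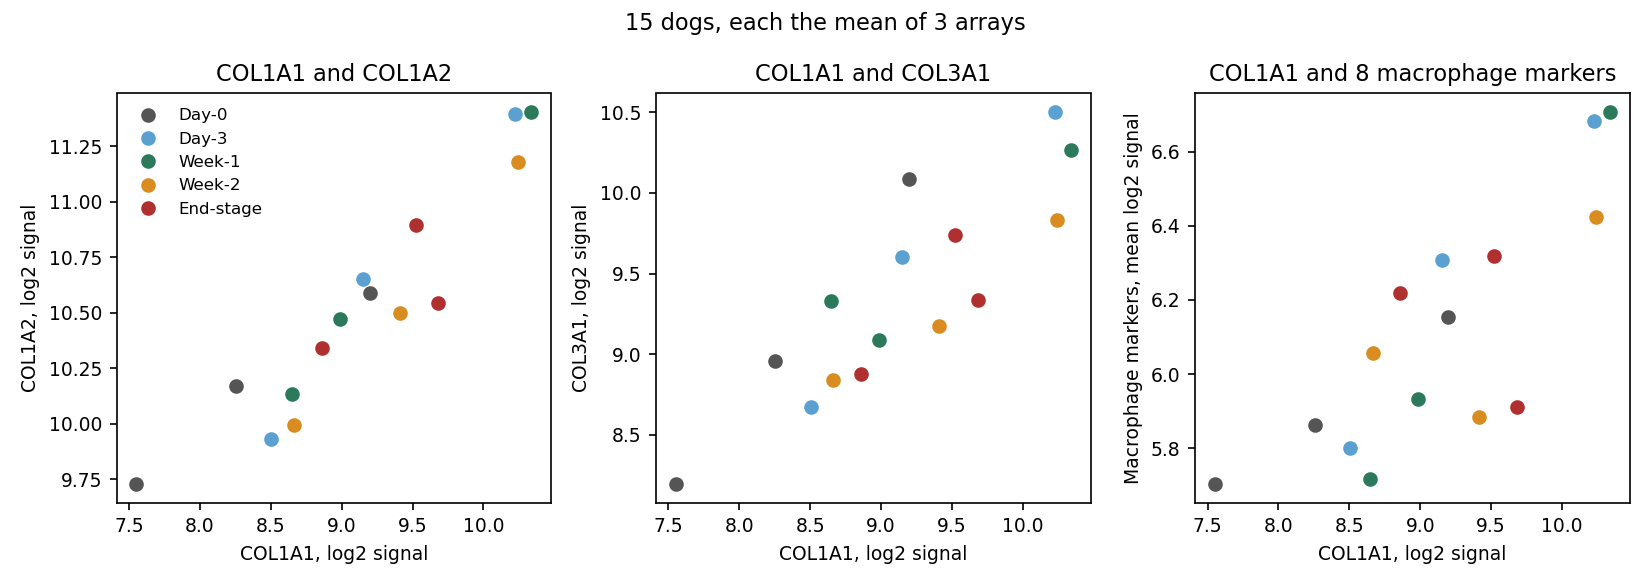
Log2 signal of COL1A2, of COL3A1 and the mean log2 signal of 8 macrophage markers against the log2 signal of COL1A1 in 15 dogs, coloured by group. COL1A2 and COL3A1 climb with COL1A1 (Pearson r of 0.94 and 0.86), as do the macrophage markers (r = 0.80).

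Markers of other cell types were compared with the members in the same dogs, over 10 lists and 3 genes (30 relations). The macrophage list had 8 of 9 markers on the array, all 8 were tested and none was at 0. Its mean log2 signal correlated with COL1A1 at a Pearson r of 0.80, with COL1A2 at 0.90 and with COL3A1 at 0.82 (permutation test, adjusted p = 0.0027, 0.00030 and 0.0027). Spearman's rho was 0.81, 0.88 and 0.76 (permutation, adjusted p = 0.0063, 0.0018 and 0.014). Without the 2 farthest dogs r was 0.68, 0.80 and 0.66, and relative to group means it was 0.81, 0.90 and 0.82. Between isolations of a dog the r was lower, at 0.43, 0.49 and 0.40. The summed macrophage signal lay between 537 and 730 in Day-0 dogs, 549 and 1040.0 in Day-3 dogs, 548 and 1035 in Week-1 dogs, 641 and 843 in Week-2 dogs and 617 and 802 in End-stage dogs. None of the 8 macrophage markers passed the threshold in the paced mean in limma (1 had an unadjusted p under 0.05, beside 11.7% of all probe sets). Of their estimates 7 of 8 lay above 0, beside 47.2% of all probe sets, with a median of 0.23. Their part in the collagen differences was not tested.

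Fibroblast markers gave correlations that did not pass the threshold among the dogs. Of 12 fibroblast markers 5 were on the array and 4 were tested, namely decorin (DCN), dermatopontin (DPT), vimentin (VIM) and podoplanin (PDPN), of which vimentin and podoplanin are also made by other cells. The mean log2 signal of all 5, with the untested gelsolin (GSN) included, had a Pearson r of 0.17 with COL1A1, 0.01 with COL1A2 and 0.11 with COL3A1 (permutation, adjusted p = 0.930, 0.983 and 0.930), and rho was 0.21, 0.07 and 0.18. Over the 4 tested markers alone r was 0.30, 0.17 and 0.27 (permutation, adjusted p = 0.818, 0.910 and 0.818 over 27 relations). Between isolations of a dog the r of all 5 was 0.46, 0.56 and 0.58. Decorin was lowest in dog 1 of every group, whereas DPT, VIM, PDPN and GSN were not. The marker correlations took no account of dog number. The summed fibroblast signal lay between 11267 and 13540 at Day-0, 9905 and 14547 at Day-3, 10244 and 14634 at Week-1, 10670 and 13927 at Week-2 and 9651 and 15158 at End-stage. Adipocyte markers, of which ADIPOQ was tested and LEP lay below the filter, had as a mean of both an r of 0.60, 0.71 and 0.64 (permutation, adjusted p = 0.084, 0.022 and 0.065) that dropped to 0.26, 0.35 and 0.24 without the 2 farthest dogs. For ADIPOQ alone r was 0.66, 0.77 and 0.70 (permutation, adjusted p = 0.034, 0.0051 and 0.019), rho was 0.56, 0.66 and 0.69 (permutation, adjusted p = 0.145, 0.052 and 0.038), and r was 0.39, 0.52 and 0.42 without the 2 farthest dogs. The cardiomyocyte list had an r of -0.28, -0.32 and -0.07. All 7 cardiomyocyte markers had estimates below 0 in each paced group, with a median of -0.17 in the paced mean. None passed the threshold in limma (1 of 7 at an unadjusted p under 0.05 in the paced mean, beside 11.7% of all probe sets). Smooth muscle and pericyte markers had 5 of 6 estimates below 0 in the paced mean, with a median of -0.30, and none passed in limma. At an unadjusted p under 0.05 there were 2 of 6 in the paced mean, beside 11.7% of all probe sets. At End-stage there were 4 of 6, beside 8.23%, and all of these were lower. Myofibroblast markers (ACTA2, TAGLN and the untested POSTN) had an r of 0.05, 0.10 and -0.11. Of the tested ones, 2 of 2 estimates lay below 0 in the paced mean, and none passed in limma. Endothelial markers had an r of 0.09, 0.08 and 0.05. Their estimates lay below 0 in 4 of 5, with a median of -0.22, and none passed in limma. The lymphocyte, atrial and skeletal muscle lists gave no correlation past the threshold. The part of none of these cell types in the collagen differences was tested.

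Genes whose pattern was most like that of the 3 collagens were ranked by Pearson r with the mean of the 3 (each centred) over 15 dogs, among 5275 other genes. The 5 nearest were COL5A2, a chain of the minor fibrillar collagen type V, at r = 0.91, BPI, a bactericidal protein of neutrophil granules, at 0.88, ACSF2, an acyl-CoA synthetase, at 0.88, COL14A1, a fibril-associated collagen, at 0.85, and CTSH, a lysosomal protease, at 0.83. For COL1A1 alone the list was COL5A2, BPI, ACSF2, CTSH and FBN1, the microfibril protein fibrillin-1, with r between 0.89 and 0.84. For COL1A2 it was COL5A2, CSF1R, FN1, EFEMP1 and ACSF2, with r between 0.92 and 0.87. For COL3A1 it was LAPTM5, COL14A1, EFEMP1, COL5A2 and C1QA, with r between 0.86 and 0.83. CSF1R, LAPTM5 and C1QA belong to the macrophage list above. Between isolations of a dog, a ranking added after the values were seen, the nearest genes to the mean were COL5A2 at r = 0.88, C1S at 0.85, FBN1 at 0.81, MFAP4 at 0.80 and FN1 at 0.79.

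The rest of the collagen pathway was described from 9 lists of 100 genes ordered by their roles. Of these 49 were on the array with a probe set of their own and 39 were tested. The lists were chosen with earlier results of these data known, so their counts and medians describe these data and are no independent test. In the mean of the paced groups against Day-0, 2 of 39 passed the adjusted threshold in limma, both higher, beside 0.301% of all probe sets (0.14% higher). At an unadjusted p under 0.05 there were 13 of 39, all higher and with both called genes among them, beside 11.7% of all probe sets in either direction, and 31 of 39 estimates lay above 0, beside 47.2% of all tested probe sets.

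Among genes that build the fibril, only collagen cross-linking had a call. LOXL2, a lysyl oxidase that cross-links collagen chains outside the cell, had signals of 172, 197 and 118 at Day-0 and 309.8, 238 and 238 at Day-3. At Week-1 they were 279.9, 247 and 220.2, at Week-2 296, 253 and 255, and at End-stage 279.5, 274 and 295. All 12 paced dogs lay above all 3 Day-0 dogs, a separation seen upward in 0.909% of all probe sets. LOXL2 rose 1.66-fold in the paced mean (log2 0.73, SE 0.14, 95% interval 0.44 to 1.03, limma adjusted p = 0.044). This call was a narrow one, as the adjusted p lay above 0.05 in 21 of 28 other settings, among them every fit without 1 dog except the one without Day-3 dog 1, with a log2 difference of 0.52 to 0.89. LOXL3 and TGM2, the other cross-linking enzymes tested, had differences of 0.04 and 0.45 and did not pass.

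The list of procollagen folding and modification had 6 of 17 genes tested, of which none passed in the paced mean (2 at an unadjusted p under 0.05). All 6 estimates lay above 0, with a median of 0.34, against a median of -0.01 over all tested probe sets. P4HA2 and P4HA1, catalytic subunits of prolyl 4-hydroxylase, had log2 differences of 0.51 and 0.47. SERPINH1, the collagen chaperone HSP47, had 0.24, and PPIB, a proline isomerase of the endoplasmic reticulum, 0.25. Propeptide removal had 3 of 8 genes tested and none past the threshold (0 at an unadjusted p under 0.05), with a median of 0.25. BMP1, which cleaves the C-propeptide, had 0.14, and its enhancers PCOLCE and PCOLCE2 had 0.25 and 0.28.

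Other fibrillar collagens had 3 of 8 genes tested, none past the threshold (0 at an unadjusted p under 0.05), and a median of 0.14. COL5A2 had a paced difference of 0.28 (SE 0.20), COL5A1 0.14 and COL2A1, the cartilage collagen, -0.09. Fibril-associated collagens and small leucine-rich proteoglycans had 6 of 13 genes tested and none past the threshold (2 at an unadjusted p under 0.05), with a median of 0.25. Biglycan (BGN) had the largest estimate of that list, 1.15 (SE 0.44, limma adjusted p = 0.296), followed by asporin (ASPN) at 0.74 (SE 0.22, limma adjusted p = 0.154). Decorin, which binds the fibril surface, had -0.07, COL6A1 0.21 and COL12A1 0.28.

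**Figure D5:**
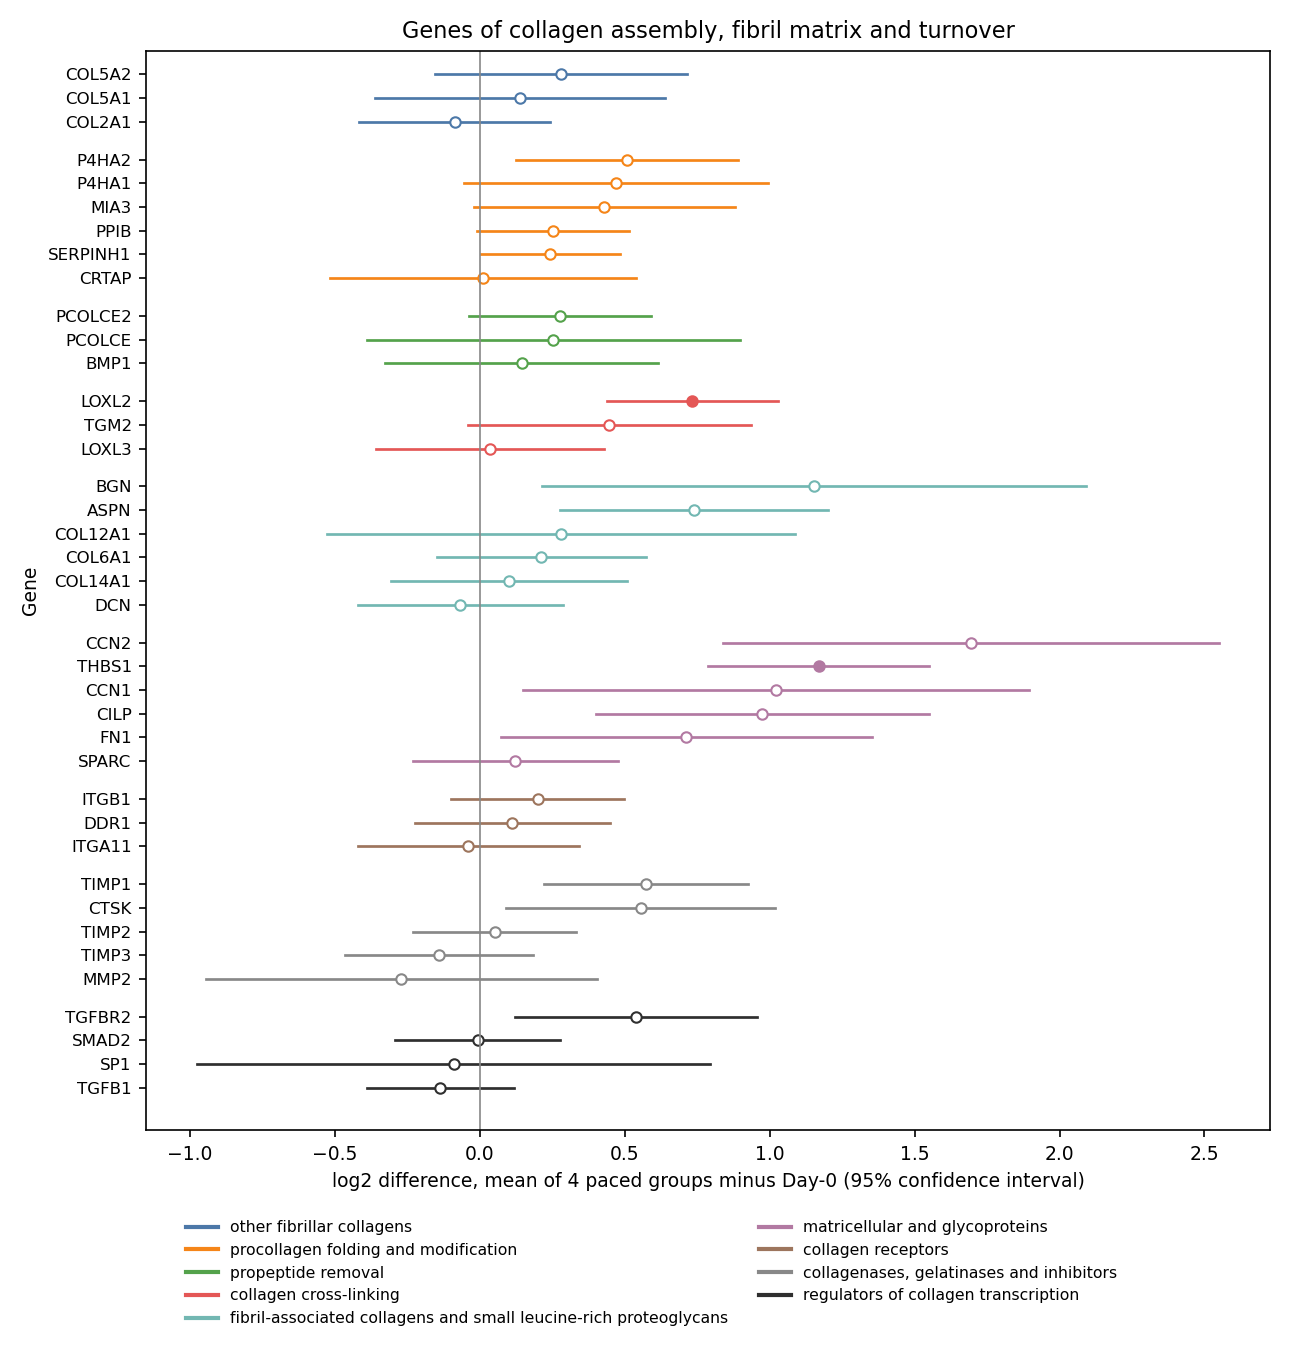
Log2 difference between the mean of the 4 paced groups and Day-0 (points, with 95% confidence intervals from limma) for 39 tested genes in 9 lists of the collagen pathway, coloured by list. Filled points passed the adjusted threshold, which holds for LOXL2 (0.73) and THBS1 (1.17), and 31 of 39 points lie above 0.

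Matricellular proteins and glycoproteins, which sit on the collagen network and signal to cells, had the highest median of the lists, 1.00, over 6 of 12 genes tested. THBS1, thrombospondin-1, an activator of latent TGF-beta, was the 1 gene past the adjusted threshold in the paced mean, beside 0.301% of all probe sets. At an unadjusted p under 0.05 there were 5 of 6 genes of the list, beside 11.7% of all probe sets. THBS1 signals were 281, 443 and 325 at Day-0, and 389, 745 and 527 at Day-3. At Week-1 they were 781, 547 and 708, at Week-2 1232, 1122 and 1181, and at End-stage 739, 768 and 1049. Only Day-3 dog 1 overlapped the Day-0 dogs. THBS1 rose 3.43-fold at Week-2 (log2 1.78, SE 0.23, limma adjusted p = 0.010) and 2.25-fold in the paced mean (log2 1.17, SE 0.18, limma adjusted p = 0.019). The paced-mean call was lost without Day-0 dog 1, 2 or 3 in turn (log2 1.03 to 1.35, limma adjusted p = 0.065 to 0.128) and without the intensity trend (limma adjusted p = 0.063), and the Week-2 call without Week-2 dog 1 or 2 (limma adjusted p = 0.056 and 0.088). CCN2, connective tissue growth factor, had a larger but more scattered difference of 1.69 (SE 0.40, limma adjusted p = 0.079), CILP had 0.97 (adjusted p = 0.129 by limma), CCN1 1.02 and fibronectin (FN1) 0.71.

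Genes that degrade or sense collagen and those that control its transcription gave no call. Collagenases, gelatinases and their inhibitors had 5 of 12 genes tested (2 at an unadjusted p under 0.05) and a median of 0.05. TIMP1, an inhibitor of matrix metalloproteinases, had 0.57 (SE 0.16, limma adjusted p = 0.146). All 12 paced dogs lay above all Day-0 dogs, a separation seen upward in 0.909% of all probe sets. The margin was small, with 195 in the lowest paced dog and 191 in the highest Day-0 dog. Cathepsin K (CTSK), a collagen-degrading protease, had 0.55, the gelatinase MMP2 -0.27 and TIMP3 -0.14. Collagen receptors had 3 of 9 genes tested (0 at an unadjusted p under 0.05), with ITGB1 at 0.20, DDR1 at 0.11 and ITGA11 at -0.04. Regulators of collagen transcription had 4 of 15 genes tested (1 at an unadjusted p under 0.05) and a median of -0.05. TGFBR2, a receptor of TGF-beta, had 0.54 (SE 0.20, limma adjusted p = 0.267), while the ligand TGFB1 had -0.14, SP1 -0.09 and SMAD2 -0.01.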

How the data were processed

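Left ventricular RNA of 15 dogs was measured on 45 one-colour Affymetrix arrays, 3 isolations per dog. Per the submitters' processing notes, GCOS 1.4 and MAS5 were used, and the authors deposited a signal intensity for each probe set on a linear scale, after their own scaling. With the lowest and highest 2% left out, the mean was 150.02 to 150.03 on every array. Precision is set by how many dogs each group has. Names come from the platform annotation of 2016, where 10549 of 23836 carry 1 symbol, 138 several and 13149 none, and only those with 1 symbol were named. Gene positions come from the RefSeq table of UU_Cfam_GSD_1.0. The 77 control probe sets were left out, and no sequence is shown.

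Each dog's value was the mean log2 signal of its 3 arrays. Probe sets in the lowest 40% by mean (under 22.8) were left out. A group-means model over 15 dogs was run in limma 3.58.1 (R 4.3.3) with eBayes and an intensity trend, and with Benjamini-Hochberg adjustment over 14302 probe sets and a threshold of 0.05. Each paced group and the mean of all 4 were compared with Day-0, consecutive paced groups with each other, and late with early groups. Exact permutation tests ran over all splits into 12 paced and 3 Day-0 dogs, and permutation tests of correlations drew 100000 resamples. The fit was tested on simulated data, with 100 probe sets given each of 2 sizes of change.

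Groups, dog and isolation numbers come from the labels. All probe sets of the 3 genes are reported. From each pathway list up to 4 genes with the smallest p in the paced mean and every gene past the threshold were named, with each gene represented by its brightest probe set, and a few others were named after their values were seen. The members, lists and comparisons were chosen with earlier results of these data known. For the pairing check, deviations of same-numbered dogs from their group means were correlated (Pearson r). Every pair exceeded 0.1 between Week-1 and Day-3 (0.167, 0.296 and 0.318), Week-2 and Day-3 (0.173, 0.166 and 0.101) and End-stage and Week-2 (0.230, 0.242 and 0.102). The labels do not pair dogs across groups, and every group had its own dogs. The main fits did not use the numbers, which served only in the replicate-block setting. What dogs of the same number share was not tested. Chosen after seeing the data were the median of isolations, the second-brightest probe sets, leaving out dogs in the permutation tests, the late against early test of within-dog differences, and the marker correlations, over all markers on the array and over the tested ones alone.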

Additional observations from a re-analysis of the deposited data

How the results depend on the processing

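In all settings tried (quantile or median scaling, log2(signal + 16), other filters, no intensity trend, fewer groups, single arrays with dogs as a random effect, without an isolation, without a dog, the dog number as a replicate block, and the median of isolations) 0 of 8 member probe sets passed the threshold in any comparison. With the replicate block the paced difference of COL1A1 was 1.02 (limma adjusted p = 0.320), and the block changed no other member call. Without 1 dog the paced difference ranged from 0.63 to 1.45 for COL1A1, 0.24 to 0.67 for COL1A2 and -0.085 to 0.86 for COL3A1, with exact permutation p of 0.011 to 0.253, 0.099 to 0.560 and 0.077 to 0.868.

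COL1A2 minus COL1A1 ranged from -0.78 to -0.38 without 1 dog, COL3A1 minus COL1A1 from -0.71 to -0.59 and COL3A1 minus COL1A2 from -0.33 to 0.19. With the mean of all probe sets of a gene, those below the filter included, the first 2 were -0.63 and -0.94 (exact adjusted p = 0.063 each). With the second-brightest probe sets, a setting added after seeing the data, they were -0.14 and -0.90 (exact adjusted p = 0.415 and 0.066). The cause was not tested.

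Other signs turned, each time with a limma adjusted p of at least 0.943. Without 1 dog, late minus early ranged from -0.11 to 0.34 for COL1A1 and -0.27 to 0.095 for COL1A2. Likewise COL3A1 by 1591762_at ranged from -0.24 to 0.71 at Week-2 and -0.21 to 0.74 at End-stage, COL3A1 by 1593385_at from -0.26 to 0.16 at End-stage, and COL1A2 by 1589596_at from -0.42 to 0.18 in the paced mean. Late minus early for COL1A1 was -0.025 without isolation 1 and -0.16 with the median of isolations. COL1A2 by 1589596_at was 0.13 without isolation 2 and 0.089 with the median of isolations. COL3A1 by 1593385_at at End-stage was 0.0049 with quantile scaling, 0.020 with median scaling, 0.14 without isolation 2 and 0.038 without Week-1 dog 1 and End-stage dog 1, and its paced mean was -0.034 with the median of isolations. Between consecutive stages the brightest probe sets changed sign in 1 to 8 of 29 settings each.

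The number of all probe sets called against Day-0 was 0 at Day-3 (0 to 273 over the settings), 4 at Week-1 (0 to 377), 12 at Week-2 (0 to 483), 2 at End-stage (0 to 322) and 43 in the paced mean (1 to 701). It was 0 late against early (0 to 23), at Week-1 against Day-3 (0 to 7), Week-2 against Week-1 (0 to 30) and End-stage against Week-2 (0 to 3). Median scaling moved the median of all probe sets by -0.12 at Week-2 against Week-1 and 0.13 at End-stage against Week-2.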
